A study of Mus musculus with 6 samples.

Results

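The complement genes described here are 34 named components, regulators and receptors of the complement system, taken by gene symbol from a platform annotation of the array. Of these, 31 had a probe set that carries the gene's symbol alone, out of 22180 genes measured that way. The rule takes the probe set with the highest mean log2 signal, and each of the 31 had 1 probe set, so no choice by signal arose. C3 and Cfd were not matched to a probe set by symbol, and Masp2 shares its probe set with another symbol, so these 3 genes are not analysed here. By their usual source in liver, 19 of the measured genes were grouped as hepatocyte-made, 7 as macrophage-made and 5 as made by other cells. The list was drawn up by function, with earlier results from these arrays known, so counts over it describe the members and do not test them as a set.

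RNA was taken from livers of male mice (C57Bl/6J background) with a single-base mutation at the end of exon 8 of Fah, the gene of fumarylacetoacetate hydrolase, which completes tyrosine breakdown. The mutation is carried by both groups, and no mice with intact Fah are part of the comparison. The continuous group (3 arrays) received NTBC, an inhibitor of an earlier step of tyrosine breakdown, at 8 mg/l in drinking water with 3% dextrose throughout. The withdrawal group (3 arrays) was kept the same way until 11 weeks of age, when NTBC was stopped for 7 days. All mice ate chow low in tyrosine and phenylalanine, and livers of both groups are labelled 12 weeks of age. Replicates are labelled biological but no animal is identified, so p-values here reflect sample-to-sample spread alone. The Fah signal (log2 change -0.15, adjusted p = 0.718) cannot check the group labels, since both groups carry the mutation. The hepatocyte markers Alb and Ttr were bright on every array.

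Complement is a blood-borne cascade of proteases and pore-forming proteins that tags microbes and damaged cells, recruits leukocytes and can lyse membranes. The classical, lectin and alternative routes each build an enzyme that cleaves C3, after which a shared terminal pathway assembles the membrane attack complex. Hepatocytes secrete most of the circulating components, whereas resident liver macrophages (Kupffer cells) make C1q and carry the receptors for the cleavage fragments of C3 and C5.

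After NTBC withdrawal, most hepatocyte-made complement transcripts fell, and macrophage-made ones showed no change that passed the test. Of 19 hepatocyte-made genes, 15 fell, 1 rose and 3 did not pass at an adjusted p of 0.05 (limma over all 34472 probe sets with Benjamini-Hochberg adjustment), with a median log2 change of -1.10. Over all probe sets 9.40% passed, 3.20% as falls and 6.21% as rises, and the median change was -0.08. A fall that passed and was at least 2-fold was seen for 11 of the 19, against 1.25% of all probe sets. All withdrawal arrays lay below all continuous arrays for 18 of the 19 genes and above them for the remaining one, Mbl2. Such separation was seen downward for 13.7% and upward for 13.9% of all probe sets. In liver tissue, fewer cells of a type and less RNA per cell cannot be told apart.

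**Figure D1:**
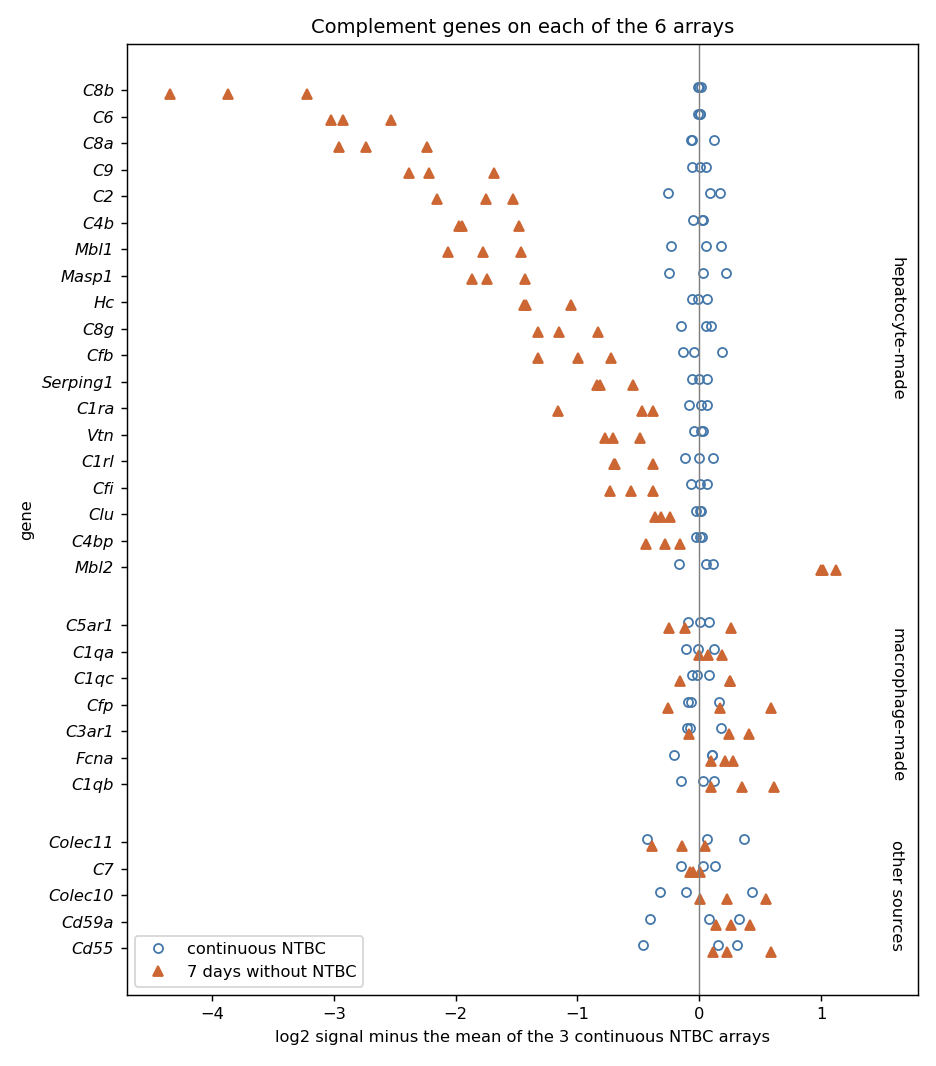
Log2 signal of each of the 31 measured complement genes on each array, minus the mean of the 3 continuous NTBC arrays for that gene. Circles are continuous NTBC arrays and triangles are arrays after 7 days without NTBC. The triangles lie left of the circles for 18 of 19 hepatocyte-made genes and right of them for Mbl2, and they overlap the circles for all 7 macrophage-made genes and all 5 genes of other sources.

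Of the 7 macrophage-made genes, 0 passed in either direction with limma, and 0 had an unadjusted p under 0.05, which 11.2% of all probe sets reached downward and 12.4% upward. Their log2 changes ran from -0.04 to 0.35 with a median of 0.17, and the groups overlapped for each of them. Across these 7 genes the 95% intervals of the change reached no lower than -0.41 and no higher than 0.73. The 5 genes of other sources also gave 0 calls with limma and 0 at an unadjusted p under 0.05, with changes from -0.16 to 0.31.

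**Figure D2:**
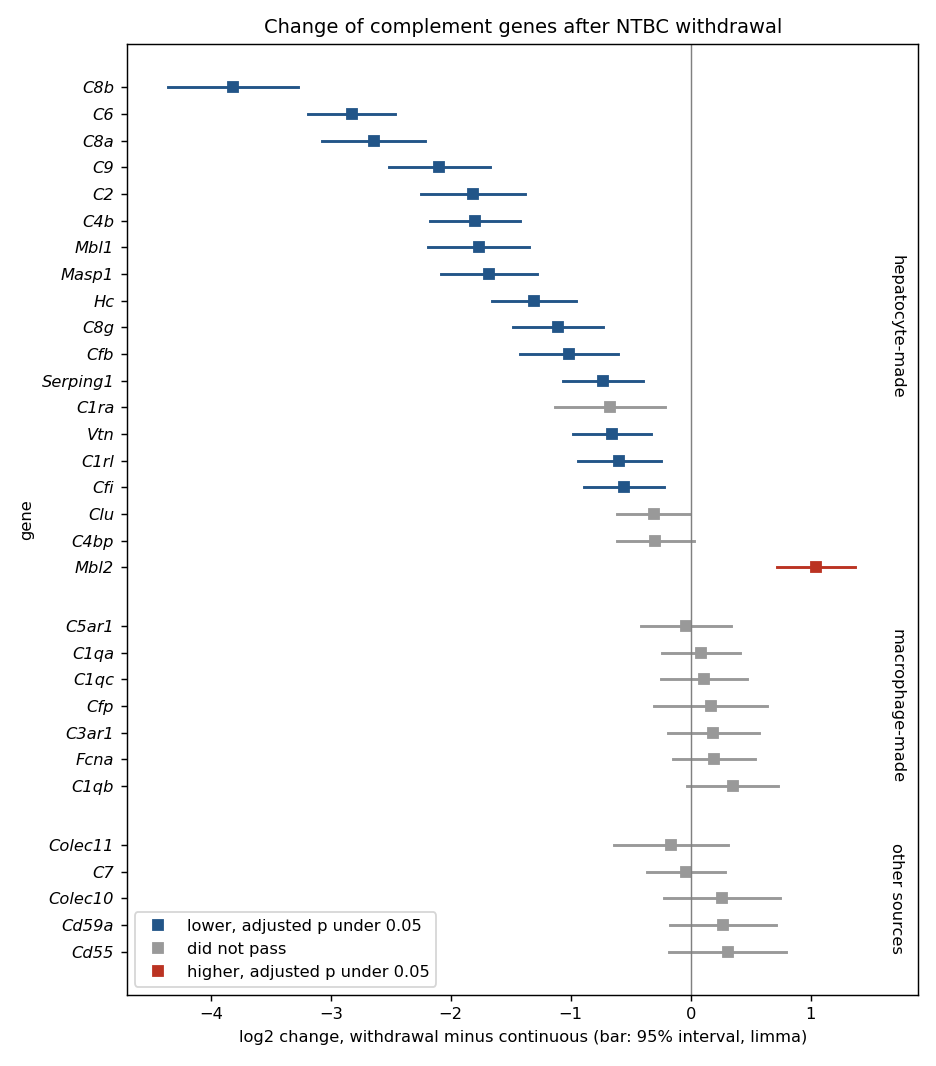
Log2 change (withdrawal minus continuous) of each measured complement gene with its 95% interval from limma, grouped by usual source and ordered by size. Blue marks the 15 genes that fell, red marks Mbl2, which rose by 1.05, and grey marks the 15 genes that did not pass, including C1ra, Clu and C4bp among the hepatocyte-made genes.

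The deepest falls were in the terminal pathway, whose components C5 to C9 join in turn to form the membrane attack complex. Of 10 measured genes of this pathway and its regulators, 7 fell and 0 rose with limma (0 upward at an unadjusted p under 0.05), with a median log2 change of -1.20. Among all probe sets 3.20% fell and 6.21% rose, and 12.4% were upward at the unadjusted p. In mice, males are known for higher levels of terminal components than females, and all mice here are male.

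C8b, which encodes the beta chain of C8, had log2 signals of 12.01, 12.02 and 12.04 on the continuous arrays and of 7.68, 8.80 and 8.15 after withdrawal. It showed the largest change of any member, a 14.1-fold fall (log2 change -3.81, SE 0.24, adjusted p = 1.65e-05). The continuous arrays were nearly identical, while the withdrawal arrays were spread over more than a log2 unit.

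C8a, the gene of the alpha chain that inserts into the membrane, had signals of 11.47, 11.29 and 11.28 with NTBC and of 8.61, 9.11 and 8.39 without it. This was a 6.25-fold fall (log2 change -2.64, SE 0.19, adjusted p = 3.50e-05). C8g, the gene of the small lipocalin chain of the same protein, went from 10.21, 9.96 and 10.17 to 8.96, 9.28 and 8.79. Its fall was 2.15-fold (log2 change -1.10, SE 0.17, adjusted p = 0.00281). The 3 chains of C8 thus fell together but by unequal amounts. The mean log2 difference C8b minus C8g within arrays was lower by 2.71 after withdrawal, and that of C8b minus C8a by 1.17. The groups did not overlap in either, but these values restate the changes above, and such overlap was not counted over all gene pairs. C8a and C8b lie next to each other on chromosome 4 with 0 other protein-coding genes between them, on opposite strands.

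C6, which binds C5b to start the complex, had signals of 10.57, 10.57 and 10.55 with NTBC and of 7.54, 8.03 and 7.64 after withdrawal. The fall was 7.09-fold (SE 0.16 on the log2 scale, adjusted p = 9.38e-06), the smallest adjusted p among the members. C9, which polymerises into the ring of the pore, went from 11.80, 11.74 and 11.85 to 9.41, 10.11 and 9.58, a 4.28-fold fall (adjusted p = 1.25e-04). Hc encodes C5, the source of the chemoattractant fragment C5a. Its signals were 12.18, 12.06 and 12.11 with NTBC and 10.68, 11.06 and 10.69 without it, a 2.47-fold fall (adjusted p = 6.96e-04). For C6, C9 and Hc alike, all withdrawal arrays lay below all continuous arrays, and the gap was wider than the spread within either group.

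C7, the component that anchors the complex to the membrane, did not follow the others. Its signals were 4.32, 4.50 and 4.60 with NTBC and 4.42, 4.40 and 4.48 after withdrawal (log2 change -0.04, 95% interval -0.36 to 0.28, adjusted p = 0.895). These values sit just above the lower quartiles of the arrays (4.03 to 4.26), so a change of C7 could be compressed there. C7 and C6 lie on chromosome 15 with 1 protein-coding gene between them, Mroh2b. In liver, C7 is mainly a product of mesenchymal cells.

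**Figure D3:**
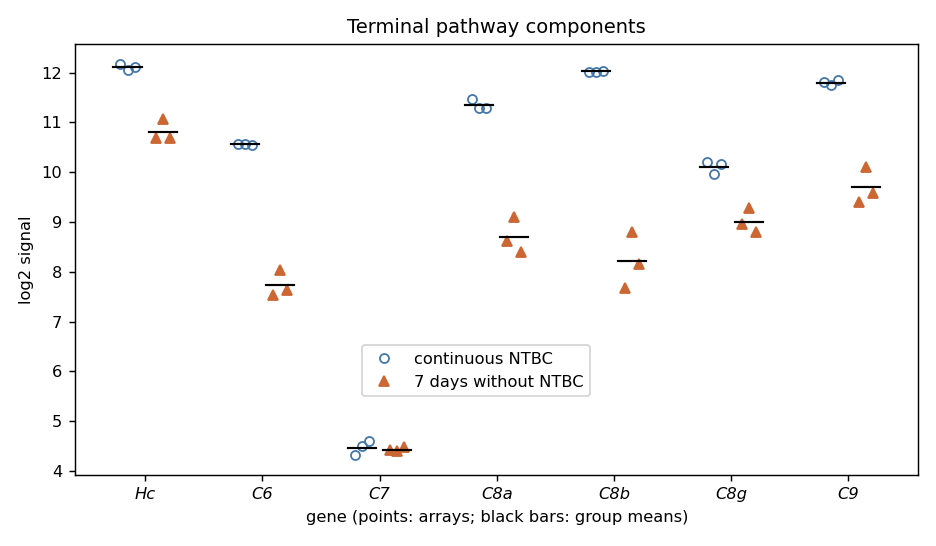
Log2 signals of the terminal components on each array, with circles for continuous NTBC, triangles for 7 days without NTBC and black bars for group means. Levels of different genes come from different probe sets and are not comparable with each other. All genes but C7 show withdrawal arrays below the continuous arrays, and the gap is widest for C8b, from a mean of 12.02 to 8.21.

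The 250 bases before the transcription start are shown for the 4 members with the largest falls, since their transcripts moved together. They come from RefSeq on GRCm38.p6, each written 5′ to 3′ on the gene's strand. Capitals mark matches to TTCNNNGAA, a letter pattern of STAT sites, or to TTNCNNAA, a loose pattern of C/EBP sites, searched on both strands. STAT and C/EBP factors carry cytokine signals to acute phase genes in hepatocytes. The windows lie at chr4:104766067-104766316 (plus strand) for C8b, chr15:4726960-4727209 (plus strand) for C6, chr4:104876399-104876648 (minus strand) for C8a and chr15:6445096-6445345 (plus strand) for C9.
C8b: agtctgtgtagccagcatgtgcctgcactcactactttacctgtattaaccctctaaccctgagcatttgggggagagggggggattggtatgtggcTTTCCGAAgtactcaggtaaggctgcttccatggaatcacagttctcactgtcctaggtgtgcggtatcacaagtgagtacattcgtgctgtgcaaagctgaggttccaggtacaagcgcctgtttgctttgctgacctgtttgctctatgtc
C6: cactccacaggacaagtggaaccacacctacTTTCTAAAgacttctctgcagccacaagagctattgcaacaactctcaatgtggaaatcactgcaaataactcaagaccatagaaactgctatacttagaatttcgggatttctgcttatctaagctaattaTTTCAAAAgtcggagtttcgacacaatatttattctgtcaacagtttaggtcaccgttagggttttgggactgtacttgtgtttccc
C8a: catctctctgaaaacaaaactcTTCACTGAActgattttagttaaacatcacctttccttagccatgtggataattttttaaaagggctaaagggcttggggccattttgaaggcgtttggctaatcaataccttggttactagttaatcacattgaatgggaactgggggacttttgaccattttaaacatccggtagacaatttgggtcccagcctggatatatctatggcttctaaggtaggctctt
C9: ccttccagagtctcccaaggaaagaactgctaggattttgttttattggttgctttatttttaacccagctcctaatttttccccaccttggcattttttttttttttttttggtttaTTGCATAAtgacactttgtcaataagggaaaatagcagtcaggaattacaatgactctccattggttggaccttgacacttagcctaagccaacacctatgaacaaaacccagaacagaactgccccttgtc

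Of the measured members 22 had such a window, among them 9 of the 15 that fell. The STAT pattern was in the window of 1 of these 9 (C8a) and of 2 of the other 13, against 7.04% of 32536 windows of all genes. The C/EBP pattern was in 4 of the 9 (C1rl and 3 of the genes shown above: C6, C8b and C9) and in 6 of the other 13, against 36.8% of all windows. The HNF4 pattern CAAAGTCCA was in 0 of the 22 (0.387% of all windows). TGACNNNGC, a pattern of the antioxidant response element, was in none of the 9 and in 2 of the 13, C1qb and Cfp (10.2% of all windows). An NF-kB pattern (3 G, any 2 bases, 3 T and 2 C) was in 1 window, that of C3ar1 (1.40% of all). A match is a run of letters and not a proven site, and sites outside these windows were not searched.

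The terminal pathway is held in check by soluble and membrane-bound inhibitors. Vtn (vitronectin), which blocks insertion of the complex, fell from 13.05 ± 0.04 to 12.39 ± 0.15 (SD, n = 3 in each group, log2 change -0.66, adjusted p = 0.0192). Clu (clusterin), another soluble inhibitor, had signals of 10.83, 10.86 and 10.87 with NTBC and of 10.54, 10.49 and 10.61 without it. These groups did not overlap, but the difference of -0.31 did not pass (adjusted p = 0.209). Cd59a, which blocks C9 at the cell surface and is made by many cell types, had a change of 0.27 (95% interval -0.17 to 0.71, adjusted p = 0.448). Beside the change of -0.66 for Vtn, the 6 components of the pore that fell had changes from -3.81 to -1.10. These sizes were not tested against each other. With NTBC the Vtn signal averaged 13.05, toward the bright end of the arrays, where a change could be compressed.

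The classical route starts with C1, made of the recognition protein C1q and the proteases C1r and C1s. Its 9 measured genes and regulators gave 4 falls and 0 rises with limma (0 upward at an unadjusted p under 0.05). The shares of all probe sets were 3.20% falls, 6.21% rises and 12.4% upward at the unadjusted p. Both substrates of C1s fell. C2, which supplies the protease of the C3 convertase, had signals of 8.69, 8.61 and 8.27 with NTBC and of 6.77, 6.99 and 6.37 after withdrawal, a 3.51-fold fall (log2 change -1.81, SE 0.19, adjusted p = 3.33e-04). C4b, the scaffold of that convertase, went from 11.70, 11.71 and 11.63 to 9.71, 10.20 and 9.73, a 3.48-fold fall (log2 change -1.80, SE 0.17, adjusted p = 1.49e-04). The near-identical gene C4a had a change of -0.59 that did not pass (adjusted p = 0.207), and transcripts of C4a and C4b could bind the same probes.

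C4bp, the inhibitor that binds C4b protein, changed less than C4b did. Its signals were 11.24, 11.28 and 11.29 with NTBC and 10.83, 11.11 and 10.99 without it (log2 change -0.29, 95% interval -0.61 to 0.03, adjusted p = 0.254). The mean log2 difference C4b minus C4bp within arrays was lower by 1.51 after withdrawal. Its groups did not overlap, but this restates the changes of the 2 genes and was not counted over all gene pairs. Serping1, the C1 inhibitor that inactivates C1r, C1s and the lectin pathway proteases, fell 1.66-fold from 11.99 ± 0.07 to 11.26 ± 0.17 (SD, n = 3 each, adjusted p = 0.0123).

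Among the proteases, C1rl, a relative of C1r, fell 1.51-fold (adjusted p = 0.0396). C1ra, the gene of C1r itself, had signals of 7.85, 7.80 and 7.70 with NTBC and of 6.62, 7.40 and 7.31 without it. The groups did not overlap, yet the change of -0.67 did not pass (SE 0.21, adjusted p = 0.0728), and withdrawal replicate 1 lay well below the other withdrawal arrays. Its near-identical copy C1rb had a change of -0.17 (adjusted p = 0.732). C1s1, the gene of C1s and not one of the 34 listed genes, fell 3.37-fold (log2 change -1.75, SE 0.23, adjusted p = 0.00113).

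The subunits of C1q come from macrophages rather than hepatocytes, and none of the 3 passed. C1qa had signals of 7.18, 7.08 and 7.31 with NTBC and of 7.38, 7.26 and 7.19 after withdrawal. C1qc had 6.64, 6.60 and 6.74 with NTBC and 6.91, 6.91 and 6.50 without it. C1qb had 7.90, 7.63 and 7.81 with NTBC and 8.13, 8.39 and 7.88 without it. In each case the groups overlapped, and the largest change of the 3 was that of C1qb at 0.35 (95% interval -0.03 to 0.73, adjusted p = 0.246). The 95% intervals of the C1q subunits together ran from -0.25 to 0.73, whereas the upper bounds for C2 and C4b were -1.38 and -1.43.

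The lectin route uses sugar-binding proteins in place of C1q, with the MASP proteases in place of C1r and C1s. Its 6 measured genes included falls of Mbl1 and Masp1 and the only rise of the whole list, that of Mbl2. Mbl1, which encodes mannose-binding lectin A, had signals of 9.87, 9.99 and 9.58 with NTBC and of 8.04, 8.35 and 7.75 after withdrawal, a 3.40-fold fall (log2 change -1.77, SE 0.19, adjusted p = 3.34e-04). Mbl2, which encodes mannose-binding lectin C, had 10.76, 10.54 and 10.82 with NTBC and 11.72, 11.83 and 11.71 without it, a 2.07-fold rise (log2 change 1.05, SE 0.15, adjusted p = 0.00170). These related lectins thus moved in opposite directions, with no overlap between groups for either. The mean log2 difference Mbl2 minus Mbl1 within arrays was higher by 2.81 after withdrawal.

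The 250 bases before the start of Mbl1 and Mbl2 are shown because these related genes changed in opposite directions. They are from RefSeq on GRCm38.p6, at chr14:41151206-41151455 for Mbl1 and chr19:30232678-30232927 for Mbl2, both on the plus strand. Capitals mark the longest run that both windows share, 13 bases that begin 23 bases before the start of Mbl1 and 57 bases before that of Mbl2.
Mbl1: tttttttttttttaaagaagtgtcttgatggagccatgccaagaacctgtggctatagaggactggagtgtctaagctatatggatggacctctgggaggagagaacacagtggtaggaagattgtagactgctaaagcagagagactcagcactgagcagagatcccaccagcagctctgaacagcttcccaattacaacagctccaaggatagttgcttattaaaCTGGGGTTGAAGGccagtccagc
Mbl2: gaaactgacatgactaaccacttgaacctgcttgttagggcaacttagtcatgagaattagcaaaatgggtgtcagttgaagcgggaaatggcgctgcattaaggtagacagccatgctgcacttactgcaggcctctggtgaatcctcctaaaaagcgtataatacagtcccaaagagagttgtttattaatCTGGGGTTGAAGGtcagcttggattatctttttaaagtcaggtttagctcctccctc

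The run was found, on either strand, in 3 of the 32536 windows, the third being that of Slc25a53. The windows of Mbl1 and Mbl2 held none of the 5 letter patterns searched.

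Masp1, which encodes a protease that activates the lectin route, went from 9.99, 9.80 and 9.52 to 8.03, 8.34 and 7.90, a 3.20-fold fall (log2 change -1.68, SE 0.18, adjusted p = 3.32e-04). The remaining recognition proteins of this route are made outside hepatocytes. Fcna (ficolin A), a Kupffer cell product, had signals of 7.58, 7.58 and 7.27 with NTBC and of 7.69, 7.75 and 7.57 without it (log2 change 0.19, adjusted p = 0.486). The collectins Colec10 and Colec11, which in mouse liver come mainly from stellate cells, had changes of 0.26 (95% interval -0.22 to 0.75) and -0.16 (95% interval -0.64 to 0.32). For Fcna and both collectins the groups overlapped, and none passed.

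Of the alternative route, which amplifies C3 cleavage, 4 genes of this group were measured. Cfb (factor B), the protease of the amplifying convertase, had signals of 11.30, 11.53 and 11.21 with NTBC and of 10.35, 10.62 and 10.02 after withdrawal, a 2.02-fold fall (log2 change -1.02, SE 0.18, adjusted p = 0.00670). Cfb and C2 encode related proteins and lie side by side on chromosome 17. The mean log2 difference C2 minus Cfb within arrays was lower by 0.80 after withdrawal. Cfi (factor I), the protease that inactivates C3b and C4b, fell 1.47-fold from 11.71 ± 0.07 to 11.15 ± 0.18 (SD, n = 3 each, adjusted p = 0.0453), close to the threshold. Calls of Cfi, C1rl and Vtn, whose falls were under 1.6-fold, were lost under several alternatives. The Cfi call was lost without any 1 array (highest adjusted p = 0.169), the C1rl call without any 1 array other than withdrawal replicate 2 (0.184), and the Vtn call without continuous replicate 2 or 3 or withdrawal replicate 1 or 3 (0.104). The Serping1 call was lost without withdrawal replicate 1 (0.0814).

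Cfp (properdin), which stabilises the alternative convertase and is made by macrophages and neutrophils, had signals of 6.60, 6.83 and 6.58 with NTBC. After withdrawal they were 6.84, 7.26 and 6.41, which spans the whole range of the continuous arrays (log2 change 0.17, adjusted p = 0.677). Cd55, which dissociates C3 convertases at cell surfaces, had a change of 0.31 (95% interval -0.18 to 0.80, adjusted p = 0.434). Cd55 and Cd59a each have a close copy, Cd55b and Cd59b, and neither copy passed.

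Both receptors for the small cleavage fragments were dim and overlapped between groups. C3ar1, the receptor of C3a, had signals of 4.95, 4.98 and 5.23 with NTBC and of 4.97, 5.46 and 5.30 after withdrawal (log2 change 0.19, adjusted p = 0.544). C5ar1, the receptor of C5a, had 5.13, 5.03 and 5.20 with NTBC and 5.00, 4.87 and 5.38 without it (log2 change -0.04, adjusted p = 0.917). Array medians were 5.21 to 5.44, and by mean signal both receptors lay in the dimmer part of all probe sets. Without detection flags, how well they were measured cannot be judged.

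A second list held complement genes outside the 34, among them C1s, factor H relatives, carboxypeptidase N, membrane regulators and complement receptors of leukocytes. Of 24 measured, 5 fell and 1 rose (3.20% and 6.21% of all probe sets), with a median log2 change of -0.20. Besides C1s1, Cpn2, the regulatory subunit of the carboxypeptidase that trims C3a and C5a, fell 2.49-fold (adjusted p = 6.47e-04). Cpn1, its other subunit, had a change of -0.29 that did not pass (95% interval -0.62 to 0.04, adjusted p = 0.267). Cfhr2, a relative of factor H, fell by 0.81 on the log2 scale. Pros1 (protein S) fell by 0.77, and the scavenger collectin Colec12 also fell by 0.77. C1qbp, named for binding C1q but chiefly a mitochondrial protein, rose by 0.75 (adjusted p = 0.0277). Vsig4, the Kupffer cell receptor for C3b, did not pass (0.35, adjusted p = 0.462).

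Genes chosen as possible regulators of hepatocyte complement transcription were read in the same way, and their part in the complement changes was not tested. Of 19 measured cytokine receptors, growth hormone pathway genes and transcription factors, 3 fell and 0 rose with limma (1 upward and 8 downward at an unadjusted p under 0.05), with a median change of -0.27. Over all probe sets 3.20% fell and 6.21% rose at the adjusted threshold, and 12.4% were upward and 11.2% downward at the unadjusted one. Il1rap, the coreceptor of IL-1, fell 2.95-fold from 9.01 ± 0.33 to 7.45 ± 0.20 (SD, n = 3 each, adjusted p = 8.37e-04). Ghr, the growth hormone receptor, fell 2.19-fold (adjusted p = 0.00490). Cebpa, a transcription factor of mature hepatocytes, fell by 0.58 on the log2 scale (adjusted p = 0.0478), near the threshold. Stat3, which relays IL-6, and Hnf4a, a factor of hepatocyte identity, had log2 differences of 0.15 and 0.13, and neither passed (adjusted p of 0.594 and 0.630). Socs3, a feedback target of STAT3, had a change of -0.37 that did not pass (adjusted p = 0.207).

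Marker genes of the cell types in liver gave the setting for the split by source. Of 11 measured hepatocyte markers, 1 fell and 0 rose with limma (0 upward and 3 downward at an unadjusted p under 0.05), with a median change of -0.05 against -1.10 for hepatocyte-made complement. Among all probe sets 3.20% fell and 6.21% rose, and 12.4% were upward and 11.2% downward at the unadjusted p. The one that fell was Cps1 of the urea cycle (log2 change -1.08), and Alb went from 14.17 ± 0.06 to 14.12 ± 0.01 (SD, n = 3 each, adjusted p = 0.868). Of these markers 6, Alb among them, had mean log2 signals over 13, near the array maxima of 14.34 to 14.44, where a change can also be compressed. The other 5 (Apoa1, Serpina1a, Cps1, Asgr1 and Hnf4a) had changes from -1.08 to 0.14 with a median of -0.23, a selection made after their values were seen. The summed linear signal of the 11 markers was 93590 to 98589 with NTBC and 83446 to 93598 without it, so these ranges barely overlapped. That of the 19 hepatocyte-made complement genes was 48001 to 49180 and 23064 to 28237, with no overlap. Such sums are dominated by the brightest probe sets, for the markers those over 13.

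Of 10 Kupffer cell markers 0 passed in either direction with limma (1 upward and 0 downward at an unadjusted p under 0.05). Their changes ran from 0.02 for Clec4f to 0.50 for Folr2, with a median of 0.24, beside 0.17 for macrophage-made complement. Their summed signal was 1614 to 1927 with NTBC and 1522 to 2439 without it. Of 12 other macrophage markers 2 rose, Cd9 (1.54) and Cd14 (1.14), both of which other liver cells also express. At an unadjusted p under 0.05 with limma, 3 of the 12 were upward and 1 downward. The median of that list was 0.07, and Ly6c2 had its lowest change (-0.64, adjusted p = 0.0696). Its mean signals of 4.28 and 3.64 lay near or under the lower quartiles of the arrays. Of 11 neutrophil markers Retnlg was called lower (-0.65, adjusted p = 0.0483) from signals under the lower quartile of the arrays. At the unadjusted p, 0 of the 11 were upward and 2 downward. Sinusoidal endothelial markers were higher in part, with 2 of 10 past the threshold, Lyve1 (1.07) and Clec4g (0.81). All 10 had changes above 0, with a median of 0.39, 6 upward at an unadjusted p under 0.05 and 7 with all withdrawal arrays above all continuous arrays. For all lists here, the shares of all probe sets were 6.21% rises and 3.20% falls at the adjusted threshold. At the unadjusted one they were 12.4% upward and 11.2% downward, and 13.9% had groups apart upward. The summed signals of the endothelial markers were 2018 to 2313 with NTBC and 2840 to 2970 without it. Stellate cell markers, 12 in number, gave 0 calls with limma (3 upward and 0 downward at an unadjusted p under 0.05) and a median of 0.12. Of 9 lymphocyte markers and 6 cholangiocyte markers 0 passed with limma, and at an unadjusted p under 0.05 there were 0 upward and 1 downward in the first list and 1 upward and 0 downward in the second. Among 6 adipocyte markers Car3, which hepatocytes also express, fell (-1.61). The part of cell composition in the complement results was not tested.

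**Figure D4:**
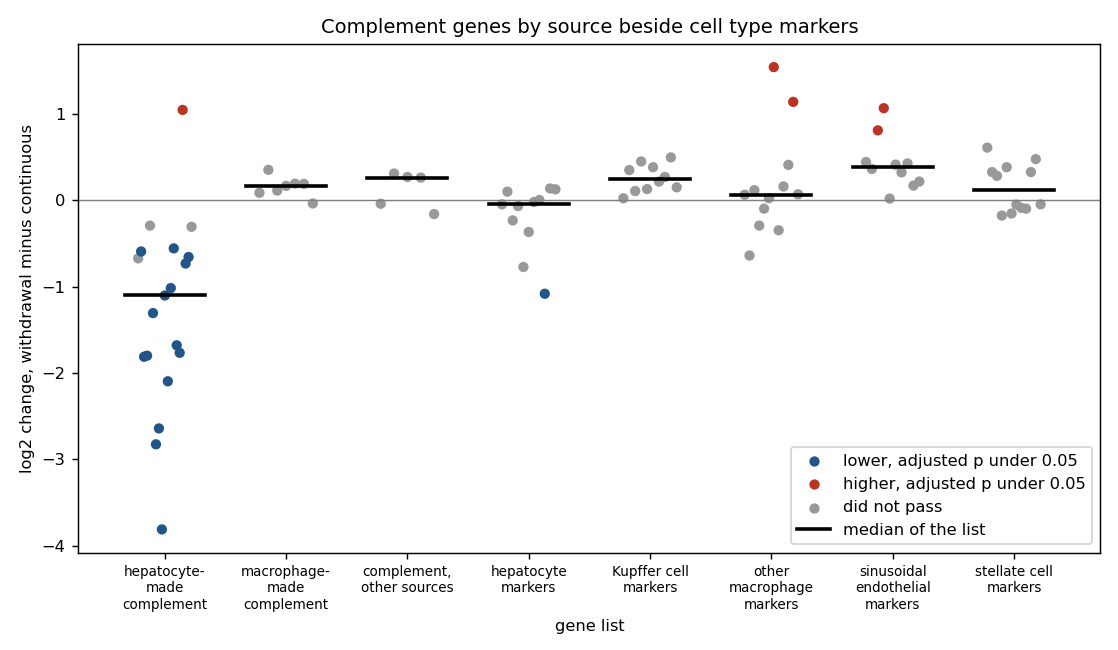
Log2 change (withdrawal minus continuous) of complement genes by usual source and of marker genes of liver cell types. Each point is a gene, coloured by whether it passed limma's adjusted p of 0.05, and black lines are list medians. Hepatocyte-made complement genes have a median of -1.10, while hepatocyte markers have a median of -0.05 (-0.23 for the 5 with signals under 13) and macrophage-made complement genes of 0.17.

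The members that fell shared a pattern across arrays, seen in part in other lists as well and not counted over all probe sets. Withdrawal replicate 2 had the highest withdrawal signal for 15 of 15, and replicate 3 the lowest for 9 and replicate 1 for 6. Withdrawal replicate 2 was also the highest withdrawal array for 9 of 11 hepatocyte markers, 7 of 10 Kupffer cell markers and 4 of 7 macrophage-made complement genes. Replicate 3 was the lowest for 11, 9 and 5 genes of these lists. The spread was wider after withdrawal for 14 of the 15, with SDs of 0.15 to 0.56 against 0.012 to 0.24 with NTBC. It was also wider for 7 of 11 hepatocyte markers, 6 of 10 Kupffer cell markers and 5 of 7 macrophage-made genes, but for 0 of 5 genes of other sources. When each array was left out in turn, 11 to 14 members were called lower, with 11 without withdrawal replicate 1. In every setting tried, 11 members (C2, C4b, Hc, C6, C8a, C8b, C8g, C9, Cfb, Masp1 and Mbl1) were called lower and Mbl2 was called higher.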

How the data were processed

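Liver RNA (100 ng a sample) was hybridised to 6 Affymetrix whole-transcript arrays, per the labels' protocols. The deposited table gives the authors' normalized intensity per probe set on a linear scale. Transcriptome Analysis Console was used, per the submitters' processing notes, and its version, background correction, normalization and genome build are not given in the sources used here. Every deposited value (100%) is 2 raised to a 2-decimal number, within 0.006, so the authors' log2 values had been rounded. No detection flags are given, so a low signal is not absence, and folds from very low or very high signals can be compressed.

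The model was limma (3.58.1, R 4.3.3, lmFit and eBayes) on log2 intensities of all 34472 probe sets, with 4 residual (10.2 total) degrees of freedom. Withdrawal was compared with continuous NTBC in a two-sided test, with p-values adjusted by Benjamini-Hochberg across the whole table, a threshold of 0.05 and no filter. Intervals are 95% from the same fit. The fit was tested on simulated data. Probe sets with several symbols (1814) named no gene. Outside the members, Il1rap has 3 probe sets of its own symbol, and C1s1, Socs3, Cd9 and Car3 have 2 each. Only the one with the highest mean signal is reported for each of these genes. Members, sources, lists, letter patterns and the gene pairs compared within arrays were chosen with earlier results of these data known. All members could be named. From other lists came the genes past the threshold, those with the smallest p-values and the extremes of marker lists. A few well-known genes, copies or subunits were chosen after their values were seen (Alb, Ttr, Stat3, Hnf4a, Socs3, C4a, C1rb, Cd55b, Cd59b, Cpn1, Vsig4). Pearson correlations between arrays were 0.978 to 0.991 within groups and 0.955 to 0.969 between them. Alternatives were other scalings, a filter on dim probe sets, a signal floor, a replicate block, array weights, another variance prior, a 2-fold threshold and each array left out. The number of arrays, 3 a group, limits the precision. Promoter windows matched 25 of the 34 symbols in RefSeq (GRCm38.p6).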

Additional observations from a re-analysis of the deposited data

How the results depend on the processing

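Over the alternatives, 11 to 16 members were called lower (15 as reported) and 1 was called higher in each. The macrophage-made members gave 0 calls in any of them. Leaving out 1 array at a time gave 11 to 14 lower members, a median change of -1.24 to -0.99 for hepatocyte-made members and of 0.08 to 0.24 for macrophage-made members. With quantile normalization the macrophage-made median moved from 0.167 to 0.047. Median centring shifted the median of all probe sets from -0.08 to 0.02, gave 12 lower members (Cfi, C1rl and Vtn were lost) and moved the share of rises among all calls from 66.0% to 77.2%. C1ra became a call (lower) with quantile normalization, with array weights and with dim probe sets left out. Of 400 member values under alternatives, 377 kept their side of the threshold, 20 lost the call, 3 gained it and 0 reversed. With dim probe sets left out, C7, C3ar1 and C5ar1 were not tested. The mean over a gene's probe sets was not run as an alternative, since each member has 1 probe set. Deviations of same-numbered arrays correlated at 0.160, -0.125 and 0.217. Differently numbered arrays were not compared in this way, so these values cannot settle whether the numbers pair the samples. With the replicate block 14 members were lower, with Cfi lost, and 1 was higher, with medians of -1.10 and 0.17.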
